A study of Mus musculus with 12 samples.

Results

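The 9 genes described here write, erase and read methyl groups on cytosine in DNA. They were chosen by name from 23361 gene names in the deposited expression table, and each is represented by its transcript with the highest summed signal. The writers are Dnmt1, Dnmt3a and Dnmt3b, the erasers are Tet1, Tet2 and Tet3, and the readers are Mbd1, Mbd2 and Mbd3. Expression was measured by SAGE-Seq, the sequencing of short tags next to a restriction site, in 12 libraries from the hippocampus of wild type male C57/BL6 mice. The 4 groups, with 3 libraries each, were aged mice in an enriched environment (aged EE), aged mice in standard housing (aged SH), young EE mice and young SH mice. Aged mice were 14 to 17 months old and young mice 5 to 6 months old by the labels. EE cages held tunnels, running wheels and objects that changed weekly, and SH cages were smaller standard cages. By the study's methods all of these mice came from a cohort trained in a water maze before and after the housing period, and each library came from 1 hippocampus of 1 animal. The methods give ages at the start of the experiments. Several weeks of housing, the second maze and further weeks followed before tissue was taken, so the mice were older by then.

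DNA methyltransferases place methyl groups on cytosines, mostly those followed by guanine (CpG). Dnmt1 copies the pattern onto new strands after replication, whereas Dnmt3a and Dnmt3b methylate unmarked sites, and Dnmt3a is the main de novo enzyme of mature neurons. TET enzymes oxidise the methyl group, which opens a route to its removal by base excision repair, and brain is known for its high content of the first oxidation product, hydroxymethylcytosine. Mbd1 and Mbd2 bind methylated CpG, and Mbd2 and Mbd3 are alternative subunits of the NuRD remodelling and deacetylase complex, although Mbd3 of mammals binds methylated DNA only weakly.

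In SAGE-Seq the reads of a gene come from the tag at the NlaIII site (CATG) nearest its poly(A) tail, so the tag decides which transcript a read is counted for. The predicted tags of the members Dnmt1, Dnmt3a, Dnmt3b, Tet1, Tet2, Tet3 and Mbd3 are shown as the sites this method targets. Deposited reads were not checked against these tags, and some Dnmt3a reads lay outside the short transcript that shares its 3′ end. The tags were read from NCBI37 (mm9) at the last site of the annotated transcript, with the NlaIII site in capitals.
Dnmt1: CATGgctgacactaagctgtttgtatg
Dnmt3a: CATGgcattttcttgttgaatgtttgt
Dnmt3b: CATGttaccattttttttgtaactcgc
Tet1: CATGtttttttttttaaagctattgca
Tet2: CATGtgagtgtttttaataaaatttat
Tet3: CATGctcttctcgctccgactgctcgt
Mbd3: CATGtggaggagcttgcccgagacggg
The tags lie at chr9:20711853-20711879 on the minus strand for Dnmt1, chr12:3914353-3914379 on the plus strand for Dnmt3a and chr2:153513291-153513317 on the plus strand for Dnmt3b. Those of the erasers lie on the minus strand at chr10:62267388-62267414 for Tet1, chr3:133126660-133126686 for Tet2 and chr6:83313111-83313137 for Tet3. The Mbd3 tag lies in a coding exon at chr10:79855929-79855955 on the minus strand. The other 6 printed tags lie in the last exon of their gene, in the 3′ untranslated region. None of the 9 tags, those of Mbd1 and Mbd2 included, was found in another annotated protein-coding gene. In RefSeq promoter sequences (GRCm38.p6, 300 bases each), 11 promoters matched 7 of the members, and none was matched for Mbd1 or Mbd2. A Tet2 promoter held 57 CG dinucleotides, more than 99.8% of 32851 promoters, whose median was 7. Those of Dnmt3a held 18, 46 and 47, that of Dnmt3b 30, those of Tet3 and Mbd3 22 each and that of Tet1 17. The 3 Dnmt1 promoters held 2, 12 and 33.

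Libraries held between 6928729 reads (aged SH library 3) and 16035089 reads (aged EE library 3). Reads carry no molecular identifiers, so intervals on them cover counting error only. Values are reads per 1000000 reads of this sum for the library (RPM), so they are lower than values per separate read would be. Library sizes were corrected by the factor that the authors gave each library. Markers of neurons, astrocytes and oligodendrocytes were high in every library. A score of position, the mean log2 level of dorsal minus ventral hippocampal markers, was 2.66 to 3.26 in libraries 1 and 3 of both the aged EE and the young SH group, against 0.23 to 1.07 in the other 8. The same 4 libraries also had the highest mean log2 levels of dentate granule cell, oligodendrocyte and microglia markers. Dentate granule cell markers were at 8.002 to 8.164 there, against at most 7.413 in the other 8. Oligodendrocyte markers were at 10.74 to 11.04, against at most 10.59, and microglia markers at 7.65 to 8.08, against at most 7.63. Position was not tested apart from these markers, so fits with the score do not separate them. Blood markers (4 of 4 tested) summed to 729 to 1044 RPM in aged SH libraries, against 1217 to 3089 RPM in young SH libraries. Inhibitory neuron markers (5 of 7 tested) summed to 194 to 230 RPM in aged SH libraries, against 332 to 380 RPM in young SH libraries. They summed to 150 to 235 RPM in aged EE libraries and to 365, 185 and 256 RPM in young EE libraries 1, 2 and 3. Choroid plexus markers (3 of 7 tested) reached 159 RPM in 1 aged EE library and no more than 18.3 RPM in aged SH, young EE and young SH libraries. The part of these marker differences in the results below was not tested, except for the position score, which was also fitted as a covariate. In such bulk tissue, fewer cells of a type and less RNA per cell cannot be told apart.

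No member passed the threshold in limma in any comparison. Nearest to it were Tet3 and Tet2 in aged SH against young SH mice, with log2 fold changes of -1.37 and 0.78 and limma adjusted p of 0.121 and 0.128. Both passed there in DESeq2 and in the likelihood ratio test of edgeR, which called 8.72% and 7.54% of all genes. For Dnmt1, Dnmt3a, Tet2, Mbd1 and Mbd3 the libraries of the groups overlapped in each comparison of housing within an age and of age within a housing. In these comparisons 12.8% to 24.7% of all genes did not overlap. Of the 9 members, 8 passed the filter on low reads, and Dnmt3b, with 31 reads in all 12 libraries, did not. Groups were compared with limma on log2 values, all 13138 genes together, with Benjamini-Hochberg adjustment and a threshold of 0.1.

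In aged EE against aged SH mice, 0 of the 8 tested members passed in limma, in a comparison that called 0.00761% of all genes (1 gene, Dynlrb1, named because it is the whole count). At an unadjusted p under 0.05, limma gave 1 member (Tet3), against 8.88% of all genes. Between young EE and young SH mice 0 of 8 members passed, where 0% of all genes were called, and 1 member (Tet2) had an unadjusted p under 0.05, against 9.58% of all genes. For aged SH against young SH mice limma called 0 of 8 members and 3.06% of all genes, which is 402 genes. Of all genes 1.26% were called higher and 1.8% lower in aged SH. Tet1, Tet2 and Tet3, 3 of the 8 members, had an unadjusted p under 0.05 there, against 19.3% of all genes. For aged EE against young EE mice 0 of 8 members and 0% of all genes passed, and 0 members had an unadjusted p under 0.05, against 7.88% of all genes. The quasi-likelihood test of edgeR likewise called 0 members in these 4 comparisons, with 0%, 0.0837%, 2.82% and 0% of all genes called, in the order above. DESeq2 and the edgeR likelihood ratio test each called 2 members, Tet2 and Tet3, in aged SH against young SH, where they called 8.72% and 7.54% of all genes, and 0 members in the other 3 comparisons. For EE against SH, DESeq2 called 0.769% of all genes in aged and 0.883% in young mice, and the likelihood ratio test 0.122% in aged and 0.495% in young mice. For aged EE against young EE they called 0.373% and 0.137% of all genes. Aged SH libraries enter 2 of the comparisons, as do the libraries of each other group, so the comparisons are not independent of each other. Leaving out 1 library at a time moved the 402 genes to between 0 (without aged SH library 1 or without young SH library 3) and 1160 (without young SH library 2).

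**Figure D1:**
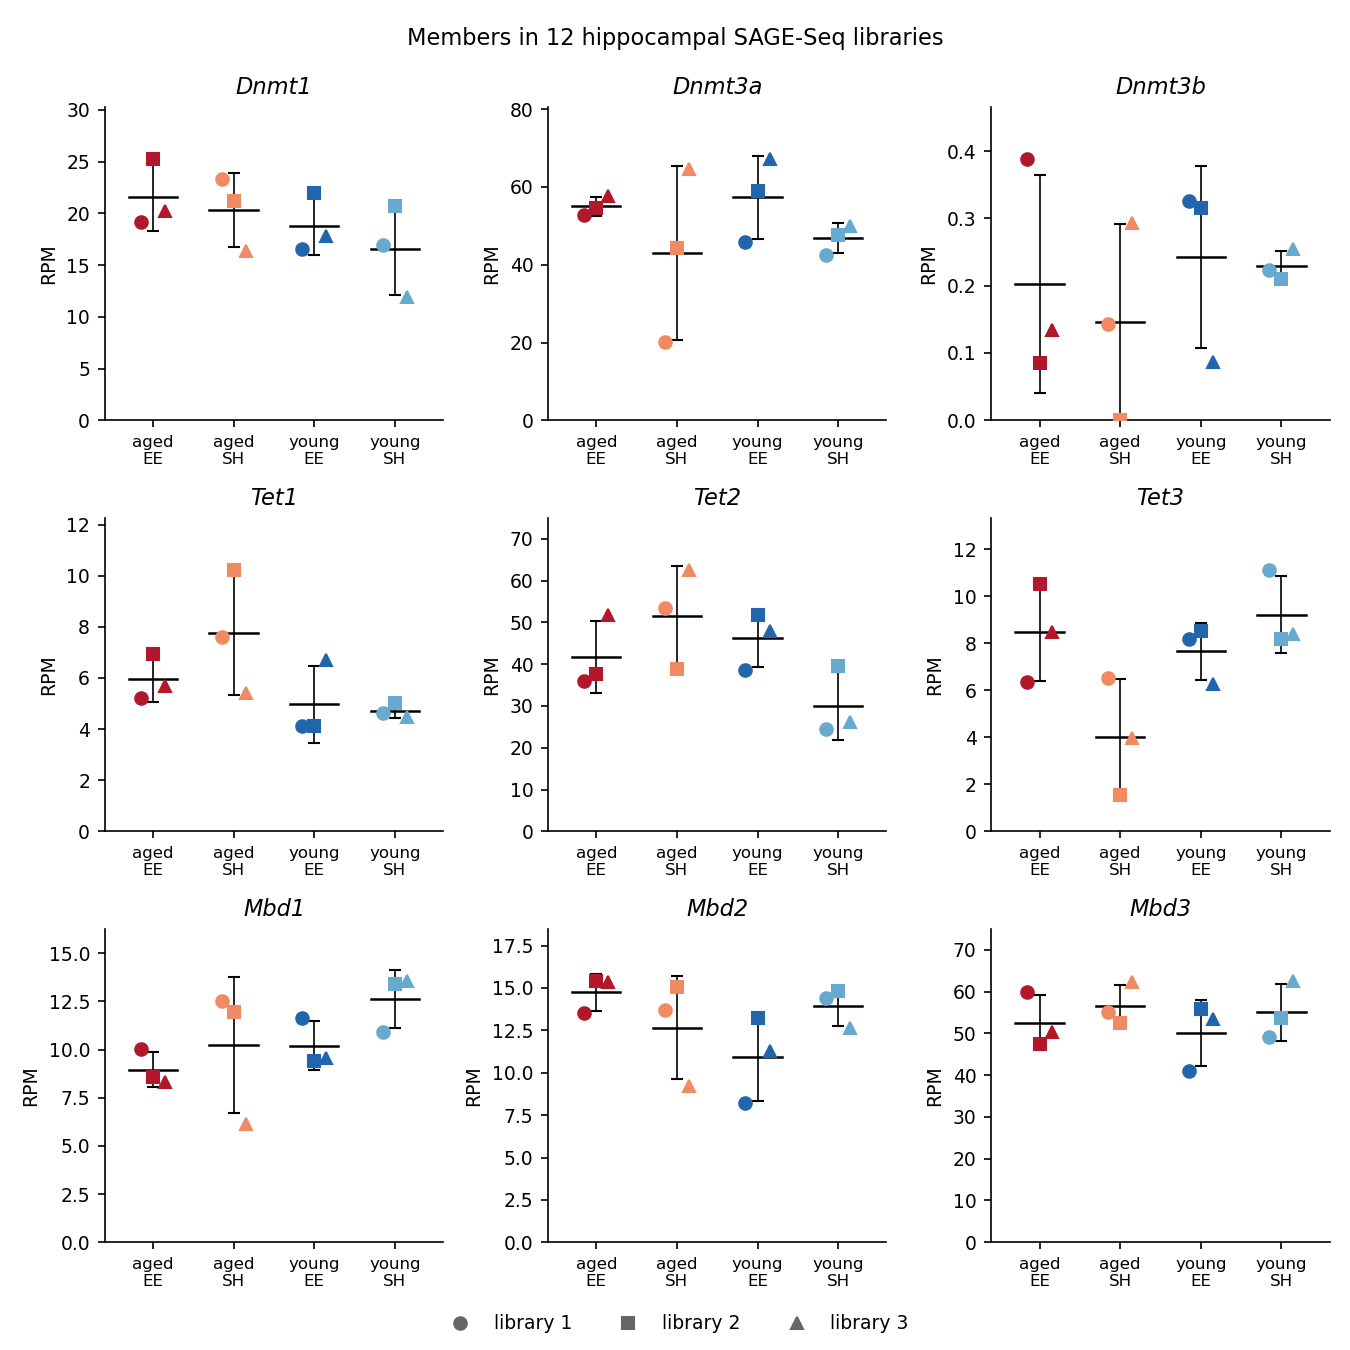
Each panel plots 1 member in RPM (vertical axis, from 0) for the 3 libraries of each group, with the symbol showing the library number, the line the group mean and the bar ± 1 SD. Aged SH libraries hold the lowest Tet3 values, at 1.54 and 3.95 RPM, and the lowest Dnmt3a value, at 20.1 RPM.

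Among the writers, Dnmt1, the maintenance enzyme, had 19.2, 25.2 and 20.2 RPM in aged EE libraries, against 23.4, 21.2 and 16.4 RPM in aged SH libraries. It had 16.6, 22.01 and 17.8 RPM in young EE libraries, against 16.9, 20.7 and 11.9 RPM in young SH libraries. The ranges overlapped in each comparison of housing and of age, and the lowest value of all was that of young SH library 3. The fitted log2 fold change was 0.09 (SE 0.23) for aged EE against aged SH, and 0.21 (SE 0.23) for young EE against young SH. It was 0.31 (SE 0.23) for aged SH against young SH, and 0.19 (SE 0.23) for aged EE against young EE. The 95% interval of the third of these was -0.19 to 0.82. Adjusted p in limma was 0.475 to 0.933 over these 4 comparisons. Group means were 21.5 RPM in aged EE, 20.3 RPM in aged SH, 18.8 RPM in young EE and 16.5 RPM in young SH, and every pair of neighbours in this order overlapped. Its 4 transcript entries share the same 3′ end and hold 2880 or 2881 reads each, so its isoforms cannot be told apart here. With the position score as a covariate, the log2 fold change of Dnmt1 was 0.39 (SE 0.24) for aged EE against aged SH and -0.08 (SE 0.24) for young EE against young SH, where the sign turned. It was then 0.06 (SE 0.23) for aged SH against young SH and 0.53 (SE 0.25) for aged EE against young EE, with limma adjusted p of 0.815 or higher in all 4.

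Dnmt3a, the de novo enzyme, was even among aged EE libraries and uneven among aged SH libraries. It had 52.7, 54.7 and 57.6 RPM in aged EE libraries, against 20.1, 44.3 and 64.7 RPM in aged SH libraries. The aged SH values lay on both sides of the narrow aged EE range. In young EE libraries it had 45.9, 58.9 and 67.1 RPM, against 42.6, 47.8 and 50.0 RPM in young SH libraries. The low value of aged SH library 1 rests on 280 reads, with an exact 95% interval of 17.8 to 22.6 RPM. The next lowest library, young SH library 1, had an interval of 39.2 to 46.2 RPM. The fitted log2 fold change was 0.51 (SE 0.33, limma adjusted p = 0.659) for aged EE against aged SH and 0.28 (SE 0.33, limma adjusted p = 0.814) for young EE against young SH. For aged SH against young SH it was -0.27 (SE 0.33, limma adjusted p = 0.692), and for aged EE against young EE it was -0.04 (SE 0.33, limma adjusted p = 0.971). A single library decides the first value, which was 0.04 without aged SH library 1 and 0.88 without aged SH library 3. Likewise aged SH against young SH gave 0.20 without aged SH library 1, on the other side of 0. Mean levels were 57.3 RPM in young EE, 55.0 RPM in aged EE, 46.8 RPM in young SH and 43.0 RPM in aged SH. Only the neighbours aged EE and young SH in that order did not overlap. These groups differ in both age and housing, and the share of all genes without overlap was not counted for this pair.

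The table holds a long and a short Dnmt3a transcript that end at the same base. The long entry spans chr12:3806980-3914443 and the short one chr12:3891744-3914443 (mm9). All 12 libraries together gave 7383 reads to the long entry and 7088 to the short one. Between 6 and 40 reads per library fell outside the short entry, which is 1.36% to 7.50% of the Dnmt3a reads. Both extremes were aged SH libraries, with 7.50% in library 1, 3.47% in library 2 and 1.36% in library 3, against 3.15%, 4.82% and 4.399% in young SH libraries 1, 2 and 3. The reads of the shared part cannot be assigned to one isoform or the other.

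Dnmt3b, the second de novo enzyme, which is best known from early embryos, was near the limit of detection. It had 5, 1 and 2 reads in aged EE libraries, against 2, 0 and 2 reads in aged SH libraries. In young EE libraries it had 5, 4 and 1 reads, against 3, 3 and 3 reads in young SH libraries. Summed over a group these are 8 reads in aged EE, against 4 in aged SH, and 10 in young EE, against 9 in young SH. The 0 reads of aged SH library 2 allow a level of up to 0.329 RPM at 3 counts. A difference between groups was not detectable at this depth.

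Tet1, an eraser with a CXXC zinc finger, had 5.20, 6.93 and 5.69 RPM in aged EE libraries, against 7.60, 10.2 and 5.42 RPM in aged SH libraries. In young EE libraries it had 4.10, 4.10 and 6.71 RPM, against 4.62, 5.03 and 4.49 RPM in young SH libraries. Every aged SH library lay above every young SH library, which 24.7% of all genes matched in either direction, while the housing groups overlapped at both ages. The log2 fold change of aged SH against young SH was 0.65 (SE 0.27, limma adjusted p = 0.220). Averaged over housing, aged against young gave 0.47 (SE 0.19, limma adjusted p = 0.264). Fold changes with housing were -0.34 (SE 0.27) in aged and 0.04 (SE 0.27) in young mice. Between 37 and 106 reads per library stand behind these values.

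Tet2, an eraser without a CXXC domain of its own, was the most abundant TET gene in RPM. It had 36.1, 37.6 and 51.7 RPM in aged EE libraries, against 53.5, 38.8 and 62.5 RPM in aged SH libraries. Young EE libraries had 38.6, 51.8 and 48.1 RPM, against 24.5, 39.5 and 26.2 RPM in young SH libraries. The lowest values of the 12 were those of young SH libraries 1 and 3, while young SH library 2 lay within the range of the other groups. Aged SH against young SH gave a log2 fold change of 0.78 (SE 0.24, limma adjusted p = 0.128). Young EE against young SH gave 0.64 (SE 0.24, limma adjusted p = 0.453), and aged EE against aged SH gave -0.29 (SE 0.24, limma adjusted p = 0.743). The call in aged SH against young SH depended on the test, with an adjusted p of 0.0759 in the edgeR likelihood ratio test and 0.0567 in DESeq2. It also passed in limma without young EE library 1, at an adjusted p of 0.0917, and without young SH library 2, at 0.0618. These 2 fits called 1157 of 13305 and 1160 of 13377 genes.

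The 2 young SH libraries with low Tet2 were also those with a high position score, at 2.87 and 3.10, against 0.23 in young SH library 2. The same score was 3.26 and 2.66 in aged EE libraries 1 and 3, whose Tet2 levels were 36.1 and 51.7 RPM. With the score as a covariate, the log2 fold change of Tet2 was 0.39 (SE 0.27) for young EE against young SH and 0.57 (SE 0.26) for aged SH against young SH, with limma adjusted p of 0.916 and 0.403.

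**Figure D2:**
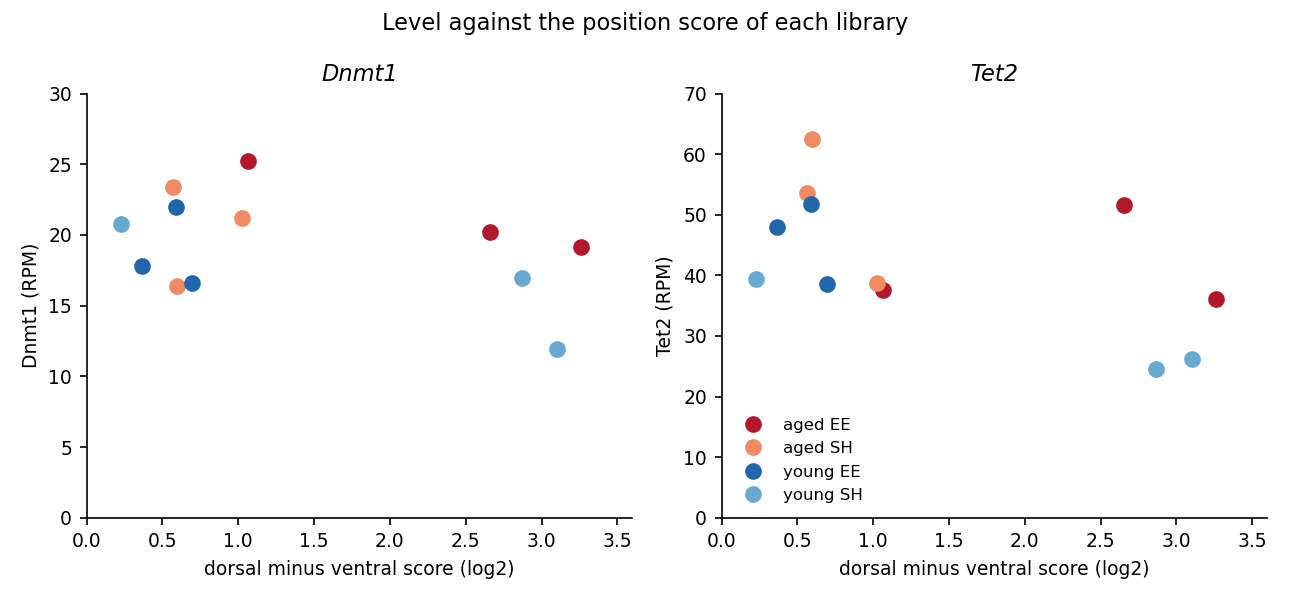
Dnmt1 (left) and Tet2 (right) in RPM are plotted against the dorsal minus ventral marker score of each library on the log2 scale, with 1 point per library, coloured by group. Of the 4 libraries with a score above 2.6, the 2 young SH libraries hold the lowest Tet2 levels, 24.5 and 26.2 RPM, and the 2 aged EE libraries hold 36.1 and 51.7 RPM.

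Tet3, the TET gene known for oxidising the paternal genome of the zygote and also expressed in neurons, varied most among the tested members. It had 6.36, 10.5 and 8.50 RPM in aged EE libraries, against 6.52, 1.54 and 3.95 RPM in aged SH libraries. Young EE libraries had 8.20, 8.52 and 6.28 RPM, against 11.1, 8.17 and 8.38 RPM in young SH libraries. All 3 aged SH libraries lay below all 3 young SH libraries, a separation that 24.7% of all genes matched in either direction. Aged SH library 1 lay just above aged EE library 1. The lowest value, in aged SH library 2, rests on 14 reads with an exact 95% interval of 0.841 to 2.58 RPM. Aged SH library 3 had 27 reads and an interval of 2.60 to 5.75 RPM, and every library outside aged SH had at least 73 reads.

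Aged EE against aged SH gave a Tet3 log2 fold change of 1.23 (SE 0.41, 95% interval 0.34 to 2.12), with an adjusted p of 0.531 in limma. For aged SH against young SH it was -1.37 (SE 0.41, 95% interval -2.26 to -0.48), with an adjusted p of 0.121 in limma. Young EE against young SH gave -0.26 (SE 0.41, limma adjusted p = 0.869), and aged EE against young EE gave 0.12 (SE 0.41, limma adjusted p = 0.941). Leaving out 1 aged SH library moved both larger values. Aged EE against aged SH became 1.68 without aged SH library 1 and 0.69 without aged SH library 2, and aged SH against young SH became -1.81 and -0.83 without these libraries. The adjusted p of aged SH against young SH was 0.0710 in the edgeR likelihood ratio test and 0.0613 in DESeq2, and 0.0953 in limma without young EE library 1. That limma fit called 1157 of 13305 genes in this comparison. Aged SH libraries 2 and 3, which hold the low Tet3 values, were also the least deeply sequenced, with 9524629 and 6928729 reads summed over transcript entries. When all libraries were thinned once to the depth of the smallest, Tet3 had 5.07, 1.96 and 3.95 RPM in aged SH libraries, against 11.1, 8.50 and 9.18 RPM in young SH libraries. The fold change was then -1.40 on the log2 scale, with a limma adjusted p of 0.0770, in a fit that called 349 of 12186 genes. Thinning keeps the expected level of a gene and left aged SH library 3 as it was, and the part of depth in these values was not tested. With the position score as a covariate it was -1.50 (SE 0.48, limma adjusted p = 0.267), and aged EE against aged SH gave 1.39 (SE 0.51, limma adjusted p = 0.946).

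Within the TET family, Tet3 made up a smaller part of the reads in aged SH libraries than in any other group. Its share of the summed Tet1, Tet2 and Tet3 reads was 13.4%, 19.1% and 12.9% in aged EE libraries, against 9.64%, 3.04% and 5.50% in aged SH libraries. In young EE libraries the share was 16.1%, 13.2% and 10.3%, against 27.6%, 15.5% and 21.5% in young SH libraries. All aged SH libraries lay below all 9 other libraries, and all young EE libraries except library 1 lay below all young SH libraries. The exact 95% interval of the highest aged SH library was 7.83% to 11.7%, which overlaps the 8.15% to 12.8% of the lowest young EE library. The summed TET level was 67.6, 50.5 and 71.9 RPM in aged SH libraries, against 40.3, 52.7 and 39.0 RPM in young SH libraries. These shares restate the 3 levels above and were given no test.

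**Figure D3:**
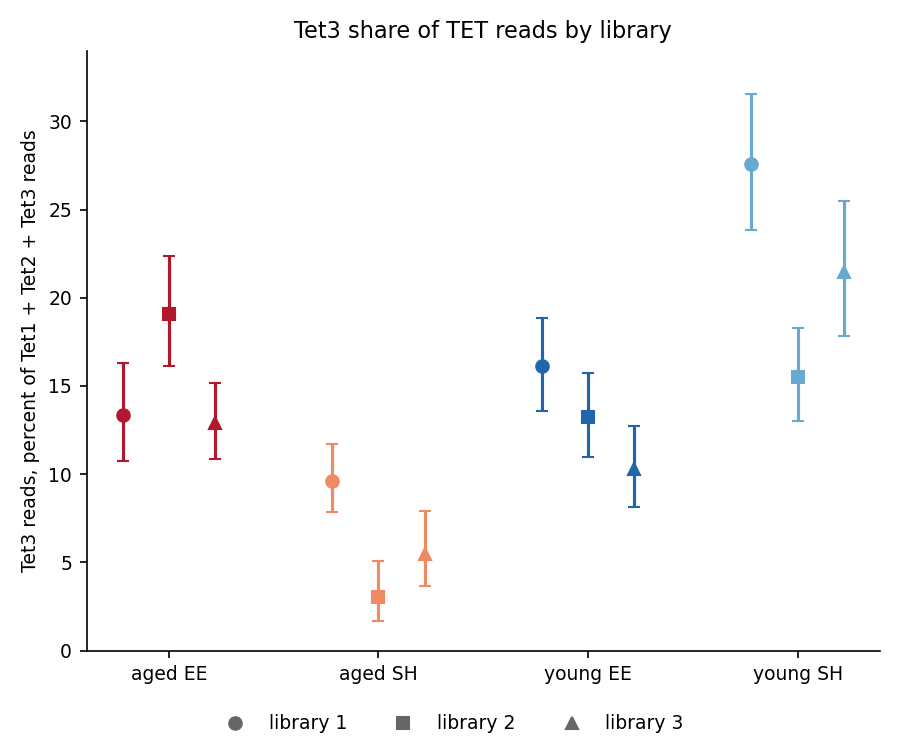
Points give the Tet3 reads of each library as a percentage of its Tet1, Tet2 and Tet3 reads (vertical axis, from 0), by group, and bars give the exact 95% binomial interval, which covers counting error only. The 3 aged SH libraries sit between 3.04% and 9.64%, below the other 9 libraries.

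Among the readers, Mbd1 had 10.01, 8.56 and 8.30 RPM in aged EE libraries, against 12.54, 11.97 and 6.15 RPM in aged SH libraries. In young EE libraries it had 11.7, 9.39 and 9.54 RPM, against 10.9, 13.4 and 13.5 RPM in young SH libraries. Groups overlapped in every comparison, and aged SH library 3 alone was low, with 42 reads. Log2 fold changes ran between -0.36 (SE 0.26) in aged SH against young SH and -0.12 (SE 0.26) in aged EE against aged SH, and limma adjusted p was 0.465 or higher in these 4 comparisons. Without aged SH library 3 the first value was -0.03 and the second -0.45.

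Mbd2, the reader that brings NuRD to methylated DNA, had 13.5, 15.4 and 15.3 RPM in aged EE libraries, against 13.7, 15.0 and 9.22 RPM in aged SH libraries. Young EE libraries had 8.20, 13.2 and 11.3 RPM, against 14.4, 14.8 and 12.6 RPM in young SH libraries. Every aged EE library lay above every young EE library, by a narrow margin, which 16.5% of all genes matched in either direction. The log2 fold change of aged EE against young EE was 0.45 (SE 0.23, 95% interval -0.04 to 0.95), with a limma adjusted p of 0.640. Between young EE and young SH it was -0.37 (SE 0.23) and between aged EE and aged SH 0.25 (SE 0.23), with limma adjusted p of 0.617 and 0.775.

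Mbd3, a NuRD subunit, had the steadiest level of the tested members. It had 59.9, 47.5 and 50.4 RPM in aged EE libraries, against 55.1, 52.5 and 62.2 RPM in aged SH libraries. It had 41.1, 55.9 and 53.4 RPM in young EE libraries, against 49.1, 53.7 and 62.5 RPM in young SH libraries. The groups overlapped throughout, and young EE library 1 was the lowest. Log2 fold changes were -0.11 (SE 0.17) for aged EE against aged SH, -0.14 (SE 0.17) for young EE against young SH and 0.04 (SE 0.17) for aged SH against young SH. The 95% interval of the last was -0.33 to 0.41. Aged EE against young EE gave 0.08 (SE 0.17), and limma adjusted p was 0.815 or higher in all 4.

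**Figure D4:**
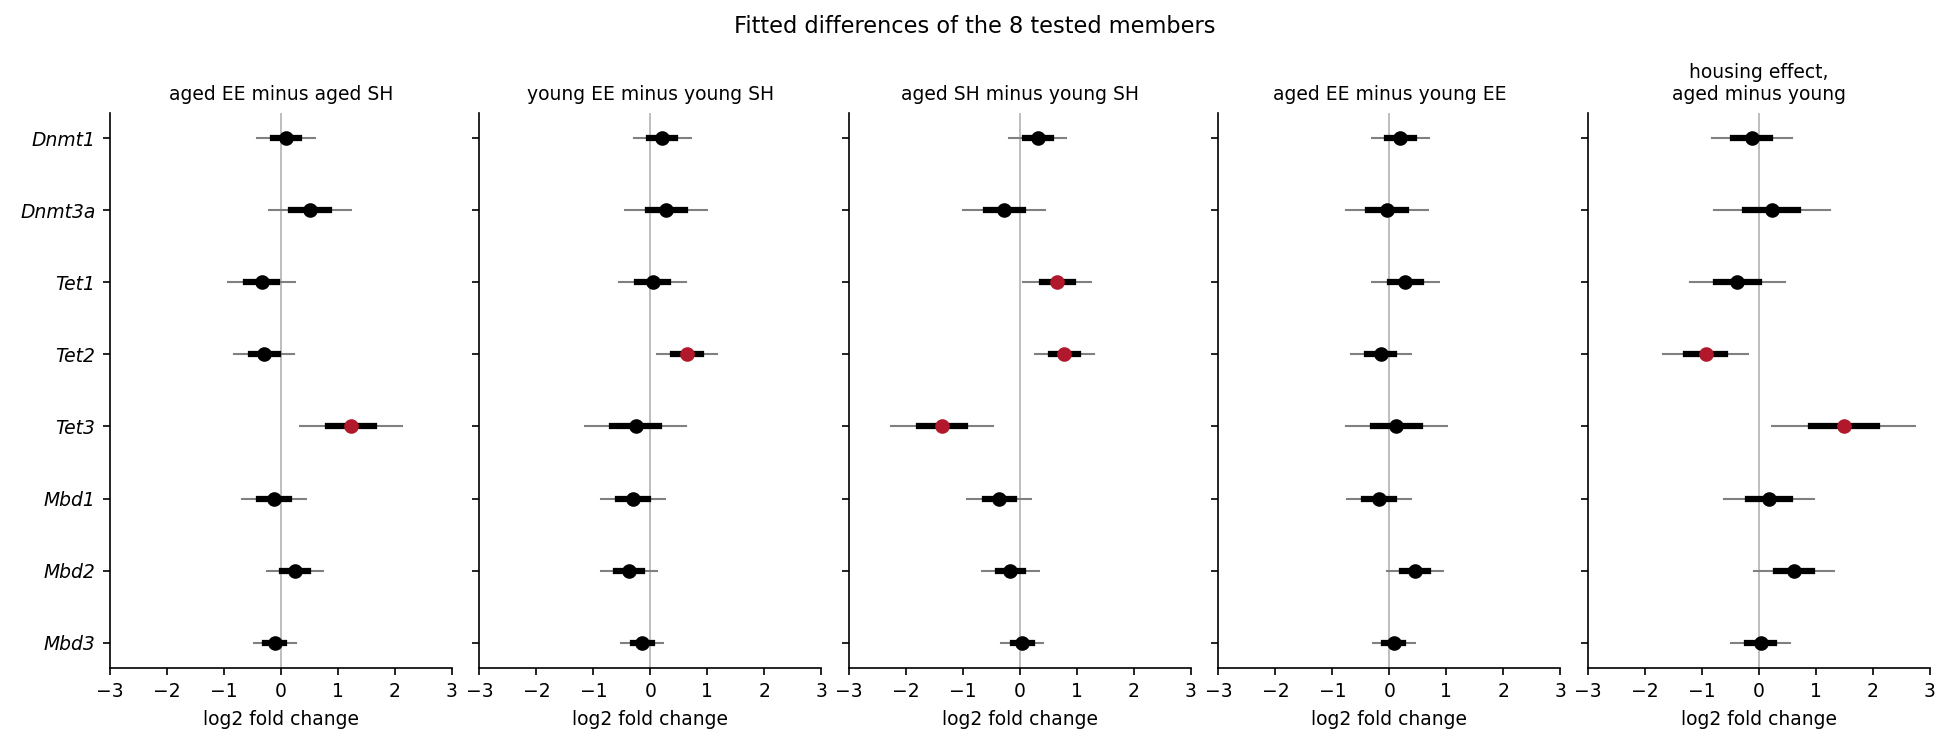
Points give the fitted log2 fold change (horizontal axis) of the 8 tested members in 5 comparisons, with thick bars for ± 1 SE and thin lines for the 95% interval, and red points have an unadjusted limma p under 0.05. Intervals that leave out 0 belong to Tet1, Tet2 and Tet3, with Tet3 at 1.23 for aged EE against aged SH and -1.37 for aged SH against young SH.

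Averaged over age, EE against SH gave no member past the threshold in limma, in edgeR or in DESeq2, with 0% of all genes called by limma, 0% by the quasi-likelihood test and 0.0152% by both the likelihood ratio test and DESeq2. None of the 8 had an unadjusted p under 0.05 in limma, against 6.13% of all genes, and the largest values were 0.49 (SE 0.29) for Tet3 and 0.39 (SE 0.23) for Dnmt3a. Averaged over housing, aged against young gave 0 members past the threshold in each tool and 0% of all genes in limma, 0% in the quasi-likelihood test, 7.06% in the likelihood ratio test and 7.73% in DESeq2. At an unadjusted p under 0.05 there was 1 member, Tet1, against 16.2% of all genes. Tet3 followed at -0.62 (SE 0.29, limma adjusted p = 0.315).

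Whether housing acted differently at the 2 ages was asked with an interaction term, the housing difference in aged minus that in young mice. It called 0 of 8 members in every tool, and it called 0% of all genes in limma, 0% in the quasi-likelihood test, 1.37% in the likelihood ratio test and 2.29% in DESeq2. At an unadjusted p under 0.05 were 2 members, against 12.1% of all genes, and they took opposite signs. Tet3 gave 1.49 (SE 0.58, limma adjusted p = 0.337). Tet2 gave -0.93 (SE 0.34, limma adjusted p = 0.316), which became -0.43 (SE 0.44) with the position score as a covariate. Mbd2 gave 0.62 (SE 0.32, limma adjusted p = 0.463), and the other 5 lay between -0.38 and 0.23. Housing groups at the same age were separate in no member, against 17.1% of all genes in aged and 12.8% in young mice.

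As a group the members had no common direction. The median log2 fold change of the 8 was -0.01 for aged EE against aged SH, where the median of all genes tested was 0.02, with 4 members above and 4 below 0. It was -0.05 for young EE against young SH, where the median of all genes was 0.00, and again 4 lay on each side. For aged SH against young SH it was -0.06, against 0.00 for all genes, and for aged EE against young EE it was 0.10, against 0.00 for all genes. In the first of these age comparisons 4 members lay above 0, and in the second 5 did.

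Spread between libraries also set the members apart. Within groups the SD on the log2 scale, pooled over the 4 groups, was 0.56 for Tet3 and 0.46 for Dnmt3a. Both lay above the median of 0.34 over all genes tested. The pooled SD was 0.18 for Mbd3, 0.27 for Mbd2, 0.28 for Dnmt1, 0.31 for Tet2 and 0.32 for Tet1 and Mbd1. The aged SH group contributed most to the high values, with an SD of 1.002 for Tet3 and 0.858 for Dnmt3a. For Tet3 the SD was 0.357 in aged EE, 0.235 in young EE and 0.242 in young SH libraries. For Dnmt3a it was 0.065, 0.278 and 0.119 in these groups. Counting error alone would give an SD of 0.17 for Tet3 and 0.06 for Dnmt3a on the same scale. The highest library held 7.23 times the lowest for Tet3 and 1.52 times the lowest for Mbd3.

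Levels divided by transcript length are given first, although a tag is read once per transcript and the division raises short transcripts. In RPM per kilobase of transcript, Mbd3 stood first at 33.7 ± 3.92 and above the next gene in 12 of 12 libraries (mean ± SD over the 12). Mbd2 followed at 7.06 ± 1.28, Dnmt3a at 5.19 ± 1.27, Tet2 at 4.62 ± 1.24, Mbd1 at 3.93 ± 0.84 and Dnmt1 at 3.28 ± 0.61, all per kilobase. Neighbours among these 5 kept their order in 7 to 10 of 12 libraries, so their places are not separated by the spread. Tet3 at 0.67 ± 0.24, Tet1 at 0.42 ± 0.13 and Dnmt3b at 0.047 ± 0.027 RPM per kilobase closed the order. Dnmt1 exceeded Tet3 in 12 of 12 libraries and Tet1 exceeded Dnmt3b in 12 of 12, and Tet3 exceeded Tet1 in 10, the exceptions being aged SH libraries 2 and 3. Since a tag is read once per transcript, RPM without the division is the scale that suits this method. Across genes RPM and transcript length had a Spearman correlation of 0.10. The clear lead of Mbd3 and the second place of Mbd2, with transcripts of 1589 and 1850 bases, come with the division. In RPM Mbd2 held place 5. Without the division by length the means were 53.6 ± 6.23 RPM for Mbd3, 50.5 ± 12.4 for Dnmt3a and 42.4 ± 11.3 for Tet2 (± SD). They were 19.3 ± 3.61 for Dnmt1, 13.1 ± 2.37 for Mbd2, 10.5 ± 2.25 for Mbd1, 7.34 ± 2.655 for Tet3, 5.84 ± 1.78 for Tet1 and 0.205 ± 0.117 for Dnmt3b. In RPM, Mbd3 exceeded Dnmt3a in 6 of 12 libraries, so the first place was not separated from the second. Dnmt3a exceeded Tet2 in 11 of 12.

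Other genes of the pathway were counted over 6 lists that hold 78 genes, 65 of them tested. For aged SH against young SH, 1 of the 65 was called higher and 2 lower in limma, and in the other 6 comparisons limma called 0 of 65. These 3 genes are 4.62% of the 65, where 3.06% of all genes were called, 1.26% higher and 1.8% lower, so the share is near that of all genes. At an unadjusted p under 0.05 were 3 of the 65 for aged EE against aged SH, 4 for young EE against young SH, 10 for aged SH against young SH and 4 for aged EE against young EE. These are 4.62%, 6.15%, 15.4% and 6.15% of the 65, against 8.88%, 9.58%, 19.3% and 7.88% of all genes. Among 11 tested methyl-CpG readers and recruiters outside the members, 1 was lower in aged SH, and among 12 tested genes of the S-adenosylmethionine cycle, which supplies the methyl donor, 1 was lower. Among 11 TET partners and suppliers of TET cosubstrates, 1 was higher in aged SH. Of 9 partners of the methyltransferases, 11 genes of deamination and base excision repair and 11 other NuRD subunits, limma called 0 in any of the 7 comparisons, with 1, 2 and 1 at an unadjusted p under 0.05 in aged SH against young SH.

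Cxxc5, whose zinc finger binds unmethylated CpG, had 7.88, 3.40 and 6.59 RPM in aged SH libraries, against 22.1, 25.2 and 33.6 RPM in young SH libraries. Its log2 fold change was -2.21 (SE 0.55, limma adjusted p = 0.0922). In aged EE libraries it had 6.36, 8.13 and 4.75 RPM, against 28.3, 4.10 and 10.1 RPM in young EE libraries, where library 1 alone reached the level of young SH. Mat2b, the regulatory subunit of the enzyme that makes S-adenosylmethionine, had 32.1, 21.9 and 28.4 RPM in aged SH libraries, against 96.2, 83.9 and 161 RPM in young SH libraries. Its log2 fold change was -2.00 (SE 0.45, limma adjusted p = 0.0823). Young EE library 1 again stood with the young SH libraries, at 104 RPM, against 21.5 and 38.8 RPM in the other young EE libraries. That library also stood with young SH in inhibitory neuron markers, at 365 RPM, and the part of these markers was not tested.

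Idh3a, a subunit of the isocitrate dehydrogenase that makes 2-oxoglutarate, the cosubstrate of TET enzymes, was the gene called higher. It had 270, 298 and 390 RPM in aged SH libraries, against 163, 201 and 126 RPM in young SH libraries, a log2 fold change of 0.97 (SE 0.19, limma adjusted p = 0.0649). Aged EE libraries had 226, 224 and 243 RPM of Idh3a, against 242, 300.5 and 284 RPM in young EE libraries, so all young SH libraries lay below the other 9. Young EE against young SH gave 0.77 (SE 0.19, limma adjusted p = 0.359). Aged SH and young SH libraries did not overlap for Cxxc5, Mat2b and Idh3a, as for 24.7% of all genes. Each call was lost in 9 of the 12 fits that left out 1 library, and all 3 were lost with the position score as a covariate, at adjusted p of 0.201 to 0.250, with fold changes of -2.28, -1.82 and 0.81 for Cxxc5, Mat2b and Idh3a. All 3 were also lost with the 8 libraries that match the study's group averages, at a limma adjusted p of 0.631. Cxxc5 was lost with the replicate number as a block, at a limma adjusted p of 0.107, and without the filter, at 0.112, and Idh3a was lost with only the 2 groups compared, at 0.106.

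**Figure D5:**
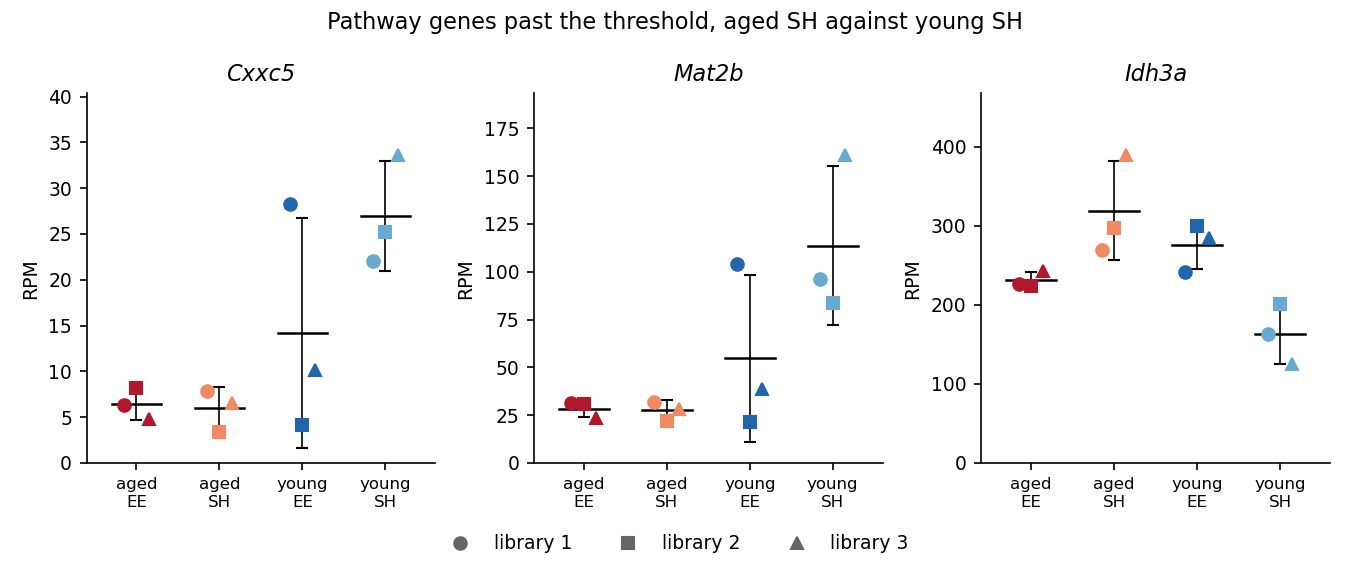
The 3 panels plot Cxxc5, Mat2b and Idh3a in RPM (vertical axis, from 0) by group, with a symbol per library number, the group mean as a line and ± 1 SD as a bar. Aged SH libraries lie below young SH libraries for Cxxc5 and Mat2b and above them for Idh3a, and young EE library 1 stands at 28.3 RPM of Cxxc5 and 104 RPM of Mat2b.

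The remaining list genes named by their rank missed the threshold in limma. Suv39h1 passed for aged SH against young SH in DESeq2 and in the likelihood ratio test of edgeR, Tdg passed in DESeq2, and Suv39h1, Tdg and Gatad2b passed in limma without young EE library 1. In this comparison DESeq2 called 8.72% of all genes, the likelihood ratio test 7.54%, and limma without that library 1157 of 13305 genes. Tdg, the glycosylase that removes the oxidation products left by TET enzymes, averaged 21.8 ± 1.82 RPM in aged SH and 34.1 ± 5.71 RPM in young SH libraries (SD, n = 3 each), with a log2 fold change of -0.63 (SE 0.21, limma adjusted p = 0.156). Its interaction was 0.93 (SE 0.30, limma adjusted p = 0.285). Suv39h1, a histone methyltransferase, had 0.591 ± 0.321 RPM in aged SH and 3.18 ± 0.948 RPM in young SH libraries (SD, n = 3 each), at -2.21 (SE 0.76, limma adjusted p = 0.162). These levels rest on few reads, 13, 5 and 2 in aged SH libraries, against 32, 42 and 50 in young SH libraries. Suv39h1 had 8, 11 and 6 reads in aged EE libraries, against 72, 2 and 12 in young EE libraries. Gatad2b, a zinc finger subunit of NuRD, gave -1.46 (SE 0.49, limma adjusted p = 0.152) in aged SH against young SH on 3 to 37 reads per library of these groups. It had 17, 15 and 11 reads in aged EE libraries, against 50, 10 and 11 in young EE libraries. Its relative Gatad2a gave 0.51 (SE 0.21) for aged EE against young EE, and Gadd45a, a stress protein linked to demethylation, gave 0.93 (SE 0.37) there, both at a limma adjusted p of 0.632. Ahcyl1, a relative of the enzyme that breaks down S-adenosylhomocysteine, gave 0.34 (SE 0.15, limma adjusted p = 0.634) for aged EE against young EE. Idh2, which makes 2-oxoglutarate in mitochondria, gave 0.45 (SE 0.17, limma adjusted p = 0.531) for aged EE against aged SH. Zbtb4, a zinc finger reader of methylated DNA, gave 0.35 (SE 0.16) and Dmap1, a Dnmt1 partner, 0.57 (SE 0.27) in aged SH against young SH, with limma adjusted p of 0.268 and 0.267.

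Genes with the most similar profile over the 12 libraries were found by the root mean square difference of mean-centred log2 levels. Nearest to Dnmt1 were Wdfy3 at 0.08 and Fam168b at 0.10, where Dnmt1 itself had an SD of 0.29. Nearest to Dnmt3a were Zbtb6 at 0.13 and Stx12 at 0.19, with an SD of 0.45 for Dnmt3a. For Tet3 the nearest were Gpank1 at 0.31 and Tnfrsf4 at 0.34, beside an SD of 0.74.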

How the data were processed

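Polyadenylated RNA was cut with NlaIII and EcoP15I, and the tags of all barcoded libraries were pooled and sequenced on one SOLiD slide. Per the study's methods, the authors mapped the tags to NCBI37/mm9 with 1 mismatch, assigned them to 29973 RefSeq transcripts and tested groups with edgeR. The signal that the authors deposited for each library equals its reads over a factor near 1 for that library, kept to 4 significant digits. All values below 1000 were whole multiples of the library's step within 0.1 read, so whole reads were recovered. The library columns were the same in each of the deposited tables, and columns of the authors' own comparisons (log2 ratio, p, FDR, group averages) were not used.

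Each gene name was represented by 1 transcript, and filterByExpr from edgeR (4.0.16) removed genes short of a count of 10 in at least 3 libraries. limma (3.58.1, R 4.3.3) was run on log2 of scaled reads plus 2, with a variance trend and all 4 groups in 1 fit. Benjamini-Hochberg adjustment ran over 13138 genes. Adding 2 reads shrinks the fold changes of genes with few reads, but limma values are not always smaller than those of the count tests. For Tet3 in aged SH against young SH limma gave -1.37, against -1.18 in both the edgeR likelihood ratio test and DESeq2. The members and the gene lists were chosen with earlier results of these data known. The rule for names took all 9 members, every list gene past the threshold and the 2 list genes with the smallest p, and the 2 genes nearest to Dnmt1, Dnmt3a and Tet3. Alternatives were DESeq2 (1.42.0) and both edgeR tests (quasi-likelihood, likelihood ratio) on the whole reads, its size factors or total counts for scaling, a filter left out or raised to a mean of 20 reads, pseudocounts of 0.5 and 8, only the 2 groups compared, the 8 libraries whose means match the study's group averages, each library left out in turn, the replicate number as a block, a threshold of 0.05, the position score as a covariate and every transcript entry. Thinning to equal depth was added after the data were seen. The fits were tested on simulated data. Labels call the libraries of a group biological replicates. Sequences of the members on chromosome 18 were not printed. One gene of the pathway lists is not reported here and was left out of their counts.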

Additional observations from a re-analysis of the deposited data

How the results depend on the processing

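Under the alternatives, the 8 tested members kept the sign of their log2 fold change in 795 of 816 values and in 646 of 672 values from fits that left out 1 library. No member was called in the opposite direction. Members were called 8 times, always Tet2 or Tet3 in aged SH against young SH: both by the likelihood ratio test of edgeR, by DESeq2 and in limma without young EE library 1, Tet2 without young SH library 2, and Tet3 after thinning to equal depth. Without young EE library 1 limma called 1157 of 13305 genes in this comparison. Without young SH library 2 it called 1160 of 13377 genes, and after thinning 349 of 12186. With the 8 libraries that match the study's group averages, Tet3 in aged SH against young SH was -1.87 (limma adjusted p = 0.631) and Dnmt3a was 0.25.

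The number of genes called over the whole table depended strongly on the processing, and the cause was not tested. For aged EE against aged SH the 1 gene became 16 with the likelihood ratio test, 101 with DESeq2 and 0 with the quasi-likelihood test, no filter, only the groups compared, the 8 libraries, the covariate, every transcript entry or the threshold of 0.05. Leaving out a library gave 0 to 5. For young EE against young SH the 0 genes became 11 with the quasi-likelihood test, 65 with the likelihood ratio test, 116 with DESeq2, 10 with total counts and 14 with a pseudocount of 8, and 0 to 297 without 1 library. For aged SH against young SH the 402 genes became 991 with the likelihood ratio test, 1145 with DESeq2, 154 without the filter, 0 with the 8 libraries, 0 with the covariate and 1 at the threshold of 0.05, and 0 to 1160 without 1 library. Of the 402, 41.0% were higher in aged SH, against 20.4% of those called with total counts, a scaling that moved the median of all genes by -0.12. For aged EE against young EE the 0 genes became 18 with the likelihood ratio test, 49 with DESeq2 and 1 with the 8 libraries, and 0 to 0 without 1 library. EE against SH gave 2 genes with either of those tests and 0 to 2 without 1 library. Aged against young gave 928 and 1016 genes and 1 with the 8 libraries, and 0 to 832 without 1 library. The interaction gave 180 and 301 genes, and 0 to 325 without 1 library.

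Deviations of libraries with the same replicate number correlated between -0.23 and 0.21, and 3 of 12 libraries correlated best with their own number, so the numbers do not pair the animals. With the replicate number as a block, 0 genes were called for aged EE against aged SH and 118 for aged SH against young SH, no member was called, and Cxxc5 was no longer called in aged SH against young SH, at a limma adjusted p of 0.107.

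Depth limits Dnmt3b most, and Tet1 and Tet3 in part, since some libraries hold fewer than 40 reads of each.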
